A study of Sus scrofa with 21 samples.

Results

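Solute carriers are membrane proteins that move sugars, amino acids, peptides, metals, vitamins, bicarbonate and other small molecules into cells, out of them, or between their compartments. They carry nutrients from the maternal blood across the uterine lining and its glands to the conceptus, the embryo with its membranes, which in the pig stays outside the uterine wall and takes up what the endometrium passes on or secretes. The gene symbol gives the family: SLC2 and SLC5 hold the glucose transporters, SLC1, SLC3, SLC6 and SLC7 the amino acid transporters, SLC30 and SLC39 the zinc transporters, and SLC25 the carriers of the inner mitochondrial membrane. Described here are all pig genes whose symbol is SLC followed by a family number, reached from a probe's RefSeq accession, and, in 1 or more groups, well above background on each of the 3 arrays. Of 64 such symbols on the array, 55 met the rule, out of 2018 named genes tested in the whole series. The brightest probe of each gene, by its mean over 21 arrays, stood for it.

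The samples were endometrium of Large White sows on 21 arrays, in 7 groups of 3. The pregnant sows were 13, 18 or 24 days past insemination at slaughter, and tissue was taken where a conceptus was attached (attachment site) and between those places (inter-site). The non-pregnant group consisted of sows given inactivated sperm and killed on day 13, so there was no non-pregnant group on day 18 or 24. The labels give 3 sows for each day and state, so the attachment and inter-site arrays of a day come from the same sows, but they do not say which arrays share a sow. The p-values measure the spread between these arrays. The tissue is bulk, so fewer cells of a type and less RNA per cell cannot be told apart.

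Of 43603 probes, each array had 62.3% to 77.1% well above background, and the test covered 30091. A level here means log2 of the signal after subtracting the array's 75th percentile, so a difference of 1 is a 2-fold change. A gene is said to rise or fall where limma's adjusted p, over all probes tested, was under 0.05. Levels of different genes come from different probes and are not compared. Endometrial epithelium, stroma and vessels were present by their markers on every array: 6 of 8 listed epithelial markers, 1 of 8 stromal markers (DCN) and 3 of 6 endothelial markers were measured and were above background on all arrays. The 4 measured smooth muscle markers (of 9 listed) had median deviations between −2.04 and 3.58 log2 units from their means, and both the highest and the lowest of the non-pregnant arrays (3.12 and −2.04) lie near those ends.

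Inter-site replicate 1 of day 13 and inter-site replicate 3 of day 24 stood apart from their groups. Over all probes they correlated with each other at r = 0.970 and with non-pregnant replicate 3 at 0.968 and 0.988. DKK1, a secreted antagonist of WNT signalling chosen here after its values were seen, was at −3.24 and −6.13 on these arrays, between 3.54 and 5.67 on the other 16 pregnant arrays, and between −5.37 and −4.63 on the non-pregnant arrays. SCNN1A, a sodium channel subunit, was at −6.37 and −5.46, between −6.08 and −3.30 on the other 16 and between −6.93 and −6.57 on the non-pregnant arrays, so the day 24 library lay within the other pregnant arrays for this gene. SCNN1A was well above background on only 11 of the 21 arrays, so its lowest values are poorly measured. DKK1 thus goes against the pregnancy in the labels of these arrays, and results that rest on them are also given without both.

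Across 11 comparisons, 20 of the 55 genes rose or fell in at least 1, and 35 in none. The calls lay in 3 comparisons: day 24 over day 13 and day 24 over day 18 at attachment sites, and attachment sites over non-pregnant endometrium on day 13. In the other 8 comparisons limma's count was 0, and the number with an unadjusted p under 0.05 is given with each. Of the 55 genes, 48 were well above background on all 21 arrays. SLC2A2 and SLC7A3 were so on 4 arrays each and met the rule only through the attachment sites of day 24, so these genes had to be highest there. Another 5 members were below background on some arrays: SLC7A9 was above it on 20 arrays, SLC15A1 and SLC9A2 on 19, SLC25A25 on 15 and SLC23A2 on 12. Among the 9 symbols that did not meet the rule were SLC17A1, SLC22A8, SLC22A13, SLC26A3, SLC26A5, SLC28A1, SLC34A1 and SLC5A11.

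The most calls were at attachment sites between day 13 and day 24, where 15 solute carriers rose and 1 fell. The share that rose was 27.3%, beside 14.6% of the named genes and 8.42% of all probes, and the share that fell was 1.82%, beside 5.25% of the named genes. In either direction, 19.9% of the named genes and 15.7% of all probes passed, and at an unadjusted p under 0.05 it was 23 members and 34.8% of the named genes. The median change was 0.39 over the 55 solute carriers, 0.19 over the named genes and 0.02 over all probes, and 40 of 55 lay above 0. Among the 48 above background on every array, 12 rose and 1 fell, where 13.6% of the named genes above background on every array rose. The groups of 3 arrays did not overlap for 32 of the 55 genes, beside 50.5% of the named genes, so non-overlap alone says little here.

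**Figure D1:**
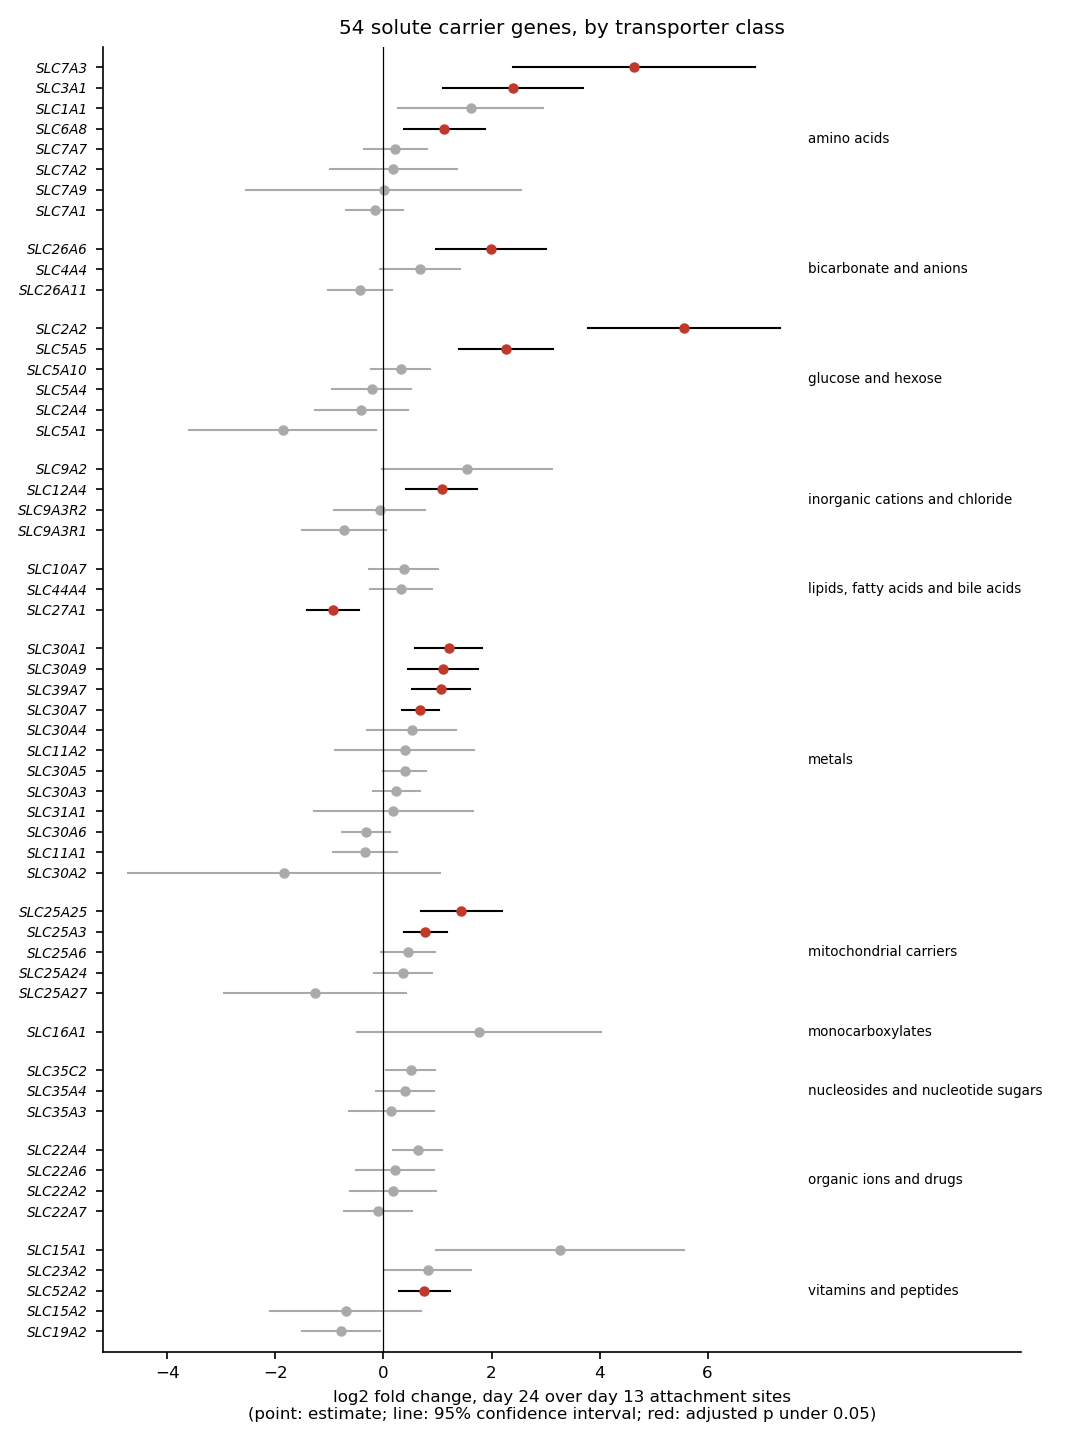
Log2 fold change of 54 of the 55 solute carrier genes, day 24 over day 13 attachment sites (3 arrays each), on the horizontal axis, with genes grouped by transporter class. Points are limma estimates, lines are 95% confidence intervals, and red points with black lines passed the test. The 14 genes drawn that rose belong to 7 classes, and SLC27A1 alone fell. The largest changes are in SLC2A2 and SLC7A3, which met the rule only through the day 24 attachment sites.

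SLC2A2, the low-affinity glucose transporter GLUT2 of liver, intestine and embryonic membranes, had the largest change. At attachment sites its level was −7.27, −8.29 and −7.84 on day 13, −6.65, −5.52 and −7.80 on day 18, and −3.37, −1.52 and −1.82 on day 24. No array of day 13 or 18 had it above background, and all 3 of day 24 did. The fitted change was 5.56 (SE 0.84, adjusted p = 0.000749) from day 13 and 4.42 (SE 0.84, adjusted p = 0.00828) from day 18. SLC2A2 met the rule only through the attachment sites of day 24, so these p-values are no separate support for a rise there. As a bound, against the lowest signals that count as measured on the dimmer arrays, it was at least 10.2-fold and at least 9.23-fold higher on day 24. Within each of the slides that held both groups, day 24 was higher than day 13, where the signal was not above background. With the slide as a block the change from day 18 lost the call (adjusted p = 0.0752), as it did when attachment replicate 2 of day 24 was left out. With the normexp background correction, which lifts the dimmest signals, the changes were 1.60 (adjusted p = 0.132) and 1.59 (adjusted p = 0.234).

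SLC7A3, the cationic amino acid transporter CAT3, which carries arginine and lysine, followed the same course. Attachment sites had −7.34, −8.31 and −7.83 on day 13, −7.99, −6.86 and −7.85 on day 18, and −4.60, −2.29 and −2.67 on day 24. Only the day 24 arrays were above background, and they lay clear of both earlier days. SLC7A3 too met the rule only through them, so the p-values below are no separate support. The change was 4.64 (SE 1.06, adjusted p = 0.00836) from day 13, at least 5.27-fold, and 4.38 (SE 1.06, adjusted p = 0.0246) from day 18, at least 4.78-fold. With the slide as a block the second of these had an adjusted p of 0.108, and with the normexp correction they were 1.34 (adjusted p = 0.274) and 1.41 (adjusted p = 0.351). Of the other genes for cationic amino acids, SLC7A1 (CAT1) was at 3.44 to 3.87 on day 13 and 3.22 to 3.77 on day 24, and SLC7A7, a subunit that exports them, at 2.09 to 2.37 and 2.32 to 2.66. Neither passed the test in any comparison.

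The other amino acid and related transporters were split. SLC3A1, the heavy subunit of the transporter for cystine and basic amino acids, was at 0.54, 0.07 and −0.75 on day 13 and 1.34, 2.60 and 3.09 on day 24. It rose by 2.39 (SE 0.61, adjusted p = 0.0154), and its 3 other probes gave 1.99 to 2.41, all past the test. With the slide as a block the adjusted p was 0.0524. Its light-chain partner SLC7A9 was at 0.97, 0.33 and −0.79 on day 13 and −0.95, 0.57 and 0.89 on day 24, so the groups overlapped. SLC6A8, the creatine transporter, rose by 1.12 (SE 0.35, adjusted p = 0.0411), and this call was lost under 5 of 10 other processing settings. SLC1A1, a glutamate and aspartate transporter, was at −0.98, −1.65 and −2.27 on day 13 and −0.08, −0.02 and 0.05 on day 24, a difference of 1.62 (SE 0.63) with an adjusted p of 0.0945. Without both libraries that stand apart, which are inter-sites, the difference was the same and the adjusted p was 0.0232. Only the estimate of the spread changed, so this is no separate support.

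**Figure D2:**
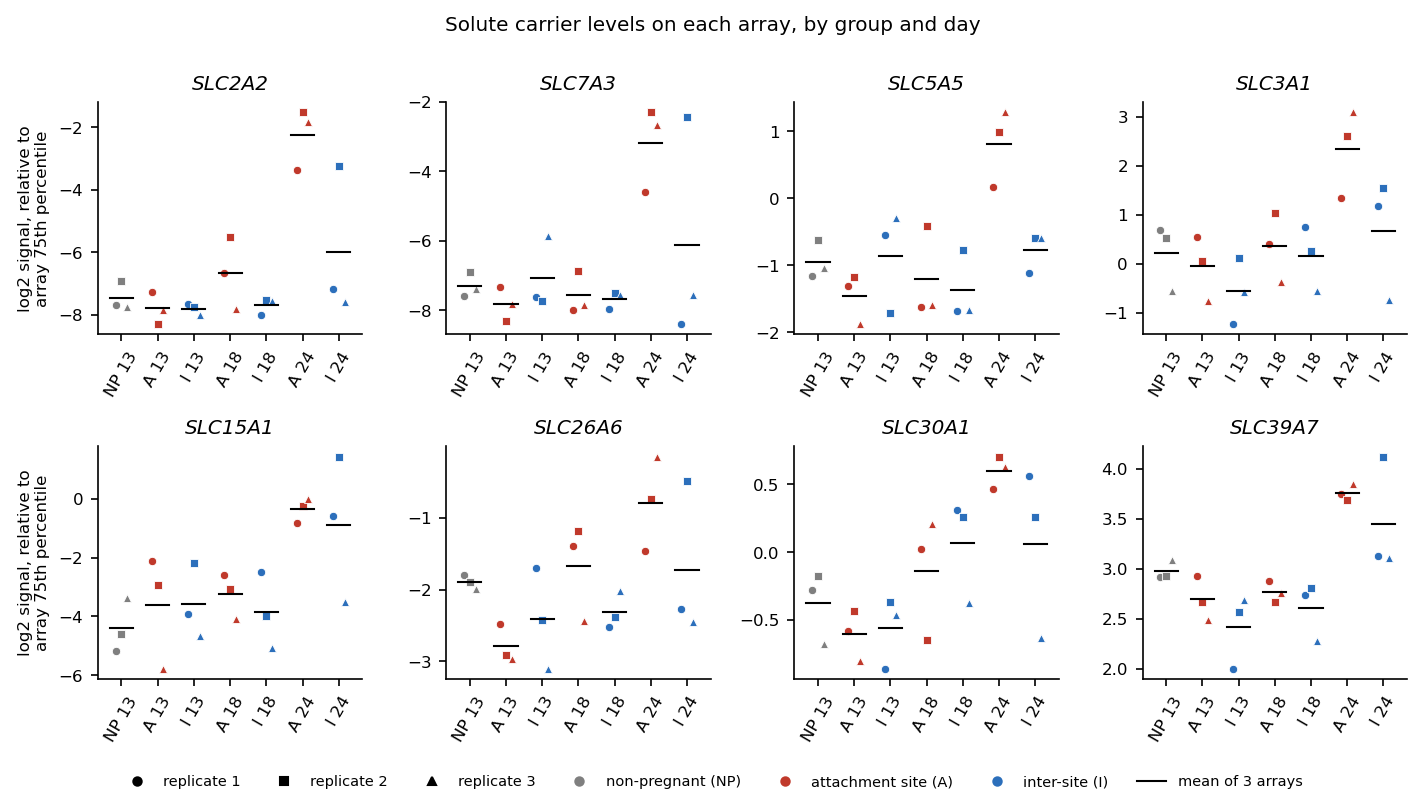
Level of 8 solute carrier genes on each of 21 arrays (vertical axes, log2 signal minus the 75th percentile of its array), by group and day, where NP is non-pregnant, A attachment site and I inter-site. Marker shapes are replicate numbers, which the labels do not tie to sows, and lines are means of 3 arrays. SLC2A2 and SLC7A3 are at or near background everywhere but at the attachment sites of day 24 and on inter-site replicate 2 of day 24.

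Among the SLC5 genes, SLC5A5 rose and the glucose carriers, by their main probes, did not. SLC5A5 is the sodium-iodide symporter, which concentrates iodide in cells, and sits in the sugar class by family number alone. It was at −1.31, −1.17 and −1.87 on day 13, −1.63, −0.41 and −1.59 on day 18, and 0.17, 1.0 and 1.29 on day 24, when every array was above all others of attachment sites. The change was 2.27 (SE 0.41, adjusted p = 0.00236) from day 13 and 2.03 (SE 0.41, adjusted p = 0.0123) from day 18. A dimmer second probe gave 6.71 and 4.70, both past the test. That probe was above background on only 12 of the 21 arrays, so the size of its changes is uncertain. The change from day 13 was called under all 11 other settings and whichever 1 of the 21 arrays was left out. SLC5A1, the intestinal sodium-glucose cotransporter SGLT1, went the other way without passing: 2.27, 0.81 and 0.34 on day 13, −0.35, −1.95 and −0.58 on day 18, and −0.65, 0.03 and −1.56 on day 24, a difference of −1.87 (SE 0.82, adjusted p = 0.134). SLC2A4, the insulin-regulated transporter GLUT4, was at −1.53 to −1.11 on day 13 and −2.07 to −1.45 on day 24, a difference of −0.41 that did not pass. SLC5A4 and SLC5A10, relatives of SLC5A1, differed by −0.22 and 0.32, and neither passed. The probes of SLC5A10 disagreed (Pearson r = 0.066): its second probe gave 0.94 and passed (adjusted p = 0.0266).

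Of the 12 genes for metals 9 move zinc, and the 4 that rose were all among these. Beside them, 27.3% of all members and 14.6% of the named genes rose, so so few calls are not read as a result about zinc. None of the 12 fell. SLC30A1, which exports zinc across the cell membrane, was at −0.59, −0.43 and −0.80 on day 13 and 0.47, 0.70 and 0.63 on day 24, with no overlap, and rose by 1.21 (SE 0.30, adjusted p = 0.0124). SLC39A7, which releases zinc from the endoplasmic reticulum, was at 2.93, 2.67 and 2.48 on day 13 and 3.75, 3.68 and 3.84 on day 24 and rose by 1.07 (SE 0.25, adjusted p = 0.0106). SLC30A9 rose by 1.11 (adjusted p = 0.0217) and SLC30A7, which loads zinc into the secretory pathway, by 0.68 (adjusted p = 0.0111). SLC30A2, another zinc exporter, was at −0.19, 0.61 and 0.66 on day 13 and −1.58, −1.11 and −1.75 on day 24. These groups did not overlap, but the spread within other groups (SE 1.37) left an adjusted p of 0.397. The copper importer SLC31A1 and the iron importer SLC11A2 overlapped between the days.

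Of 6 mitochondrial carriers, 3 rose, beside 27.3% of all members and 14.6% of the named genes, and 6 genes are too few to read as a class. SLC25A25, a carrier of ATP-magnesium and phosphate, rose by 1.44 (SE 0.36, adjusted p = 0.0127). On day 13 only attachment replicate 2 had it above background, so the starting level is poorly measured. Its call was kept under 8 of 9 other settings, and over all alternative runs the change went down to 0.83 and the adjusted p up to 0.445. SLC25A3, the phosphate carrier, rose by 0.78 (SE 0.19, adjusted p = 0.0129), with 7 of its 9 other probes past the test as well. SLC25A27, an uncoupling protein relative, was at 0.76 to 1.61 on day 13 and −0.41 to 0.54 on day 24, a difference of −1.27 that did not pass (adjusted p = 0.302).

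The remaining calls from day 13 to day 24 were single members of their classes. SLC26A6, an exchanger of chloride, bicarbonate and oxalate, rose from −2.47, −2.91 and −2.96 to −1.47, −0.75 and −0.15 (1.99, SE 0.48, adjusted p = 0.0111), and its second probe gave 2.01. SLC12A4, a potassium-chloride cotransporter that regulates cell volume, rose by 1.08 (adjusted p = 0.0262), and SLC52A2, a riboflavin transporter, by 0.76 (adjusted p = 0.0295). The other pair of SLC52A2 probes gave 0.51 each and did not pass (adjusted p = 0.0896 and 0.115), and its call was kept under 7 of 11 other processing settings. SLC27A1, which takes up long-chain fatty acids, was the gene that fell, from 0.23, 0.48 and 0.30 to −0.46, −0.55 and −0.78 (−0.94, SE 0.23, adjusted p = 0.0112). Its probes disagreed: the other pair, both dim, gave −0.90 (adjusted p = 0.0625) and −0.14 (adjusted p = 0.793). SLC15A1, the peptide transporter PEPT1, had a large difference that did not pass, 3.27 (SE 1.09, adjusted p = 0.0515): its arrays were at −2.12, −2.94 and −5.77 on day 13 and −0.81, −0.23 and −0.00 on day 24. Without both libraries that stand apart, which are inter-sites, the difference was the same and the adjusted p was 0.0257. Only the estimate of the spread changed, so this is no separate support. SLC16A1, the lactate and pyruvate transporter MCT1, was at −1.21, −1.44 and −3.79 and then −1.25, −0.26 and 0.38, and overlapped. Without attachment replicate 3 of day 24, 8 members passed, 9 without its replicate 2, and 10 without replicate 2 or replicate 3 of day 13.

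From day 18 to day 24 at attachment sites 9 solute carriers rose and none fell. The share that rose was 16.4%, beside 7.53% of the named genes and 3.89% of all probes (9.02% and 5.64% in either direction, and 27.7% of the named genes at an unadjusted p under 0.05, beside 22 members), the median change was 0.59 beside 0.17 over the named genes, and 45 of 55 lay above 0. SLC2A2, SLC7A3, SLC5A5, SLC39A7 and SLC52A2 were among those called in both comparisons. Of these, SLC2A2 and SLC7A3 met the rule only through the attachment sites of day 24. SLC25A6, which exchanges ADP for ATP in mitochondria, was at 7.01, 7.24 and 7.25 on day 18 and 7.71, 8.13 and 8.20 on day 24 (0.84, SE 0.24, adjusted p = 0.0464). SLC44A4, a choline transporter family member, was at 4.36, 4.03 and 5.01 and then 5.70, 5.40 and 5.28 (0.99, SE 0.27, adjusted p = 0.0409), and SLC30A3, a vesicular zinc transporter, changed by 0.73 (SE 0.20, adjusted p = 0.0453). These last 3 were not called over day 13, where SLC25A6 (7.39, 7.42 and 7.90) and SLC44A4 (5.24, 4.77 and 5.38) already lay close to their day 24 range. The largest differences that did not pass were SLC15A1 at 2.90 (adjusted p = 0.123), SLC3A1 at 1.99 (adjusted p = 0.0658) and SLC16A1 at 1.97. The lowest were SLC11A1, a metal carrier of macrophage lysosomes, at −0.71, SLC5A4 at −0.53 and SLC27A1 at −0.51. The count rested on few arrays: it was 0 without attachment replicate 2 of day 24, 1 without its replicate 3, 3 without replicate 1 of day 18 and 5 without replicate 3 of day 18, and with the slide as a block 2 passed.

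Markers of the conceptus moved with the day 24 attachment sites. Of 9 listed conceptus and trophoblast markers 5 were measured: PAG6, CYP19A1, CYP19A3, TFAP2C and GATA2. Their median deviation was 0.97, 2.12 and 2.66 at the attachment sites of day 24 and between −1.33 and 0.28 on all other arrays. Their summed level at attachment sites was 89.3 to 306 on day 24, 14.2 to 58.2 on day 18 and 10.02 to 12.1 on day 13. In non-pregnant endometrium it was 9.76 to 12.25. CYP19A1 and GATA2 were above background on all 21 arrays, non-pregnant ones included, so the day 13 sums are no measure of conceptus tissue. From day 13 to day 24, 3 of the 5 rose. PAG6, a pregnancy-associated glycoprotein of trophoblast, rose by 9.20 and TFAP2C, a trophoblast transcription factor, by 3.69. CYP19A3, the placental aromatase, was well above background on the 3 arrays of day 24 attachment sites and on no other. It was tested only through those arrays, so its call is no separate support for a rise there. HBE1, an embryonic globin, rose by 10.2. The part of conceptus tissue in the solute carrier changes was not tested. From day 18 to day 24 all 6 epithelial markers had positive differences, with a median of 1.11, and 1, CDH1, passed; from day 13 to day 24 their median was −0.13 and none passed. All 6 T and NK cell markers had negative differences from day 18 to day 24, with a median of −1.57 and each at an unadjusted p under 0.05, and GZMB fell by 1.67. The 4 smooth muscle markers had a median of −1.86, with none past the test. Of 3 macrophage markers CD163 rose by 2.48 and CD180 fell by 2.41. The part of these cell types in the solute carrier changes was not tested.

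**Figure D3:**
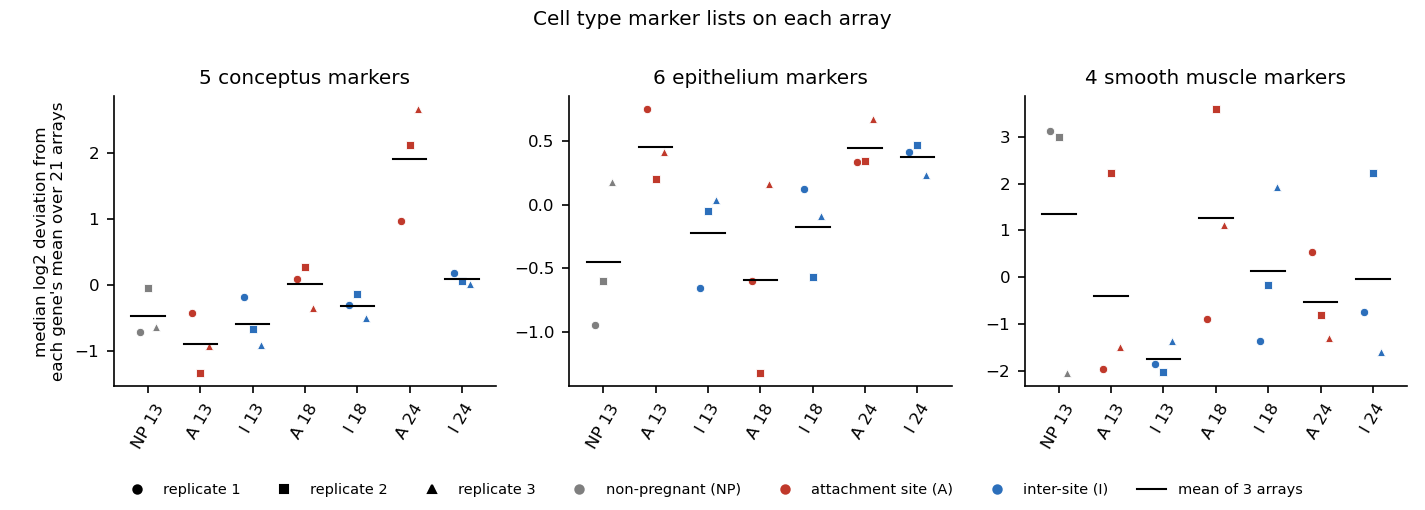
Median log2 deviation from each gene's mean over 21 arrays, for the measured conceptus, epithelium and smooth muscle markers on every array, by group and day (NP non-pregnant, A attachment site, I inter-site). The conceptus markers are highest on the 3 attachment-site arrays of day 24 (0.97, 2.12 and 2.66), and the smooth muscle markers range widely within groups.

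Attachment sites were next compared with inter-sites of the same day, where no solute carrier passed the test. On day 24 the count was 0, beside 0.694% of the named genes and 0.279% of all probes, and 7 members had an unadjusted p under 0.05, beside 9.76% of the named genes. SLC2A2 came closest, with a difference of 3.76 (SE 0.84, 95% confidence interval 1.99 to 5.54) and an adjusted p of 0.0783. Its inter-site arrays of day 24 were at −7.19, −3.23 and −7.58, and those of SLC7A3 at −8.39, −2.43 and −7.57. Replicate 2 was the high one for both, the only inter-site array on which either gene was above background, and it reached the range of the attachment sites. The same array held PAG6 at 5.78 and TFAP2C at 1.62, beside 2.17 and −1.26 on replicate 1 and −4.97 and −0.69 on replicate 3, while CYP19A3 was not above background on any of the 3. Without inter-site replicate 2 of day 24, SLC2A2 differed by 5.15 (adjusted p = 0.000457) and SLC7A3 by 4.79 (adjusted p = 0.00155). As that array was the high one, larger differences without it were given in advance. Without attachment replicate 1 of that day SLC2A2 alone passed, with 4.33 (adjusted p = 0.0454). For SLC2A2 that array was the lowest of the day 24 attachment sites (−3.37), so a larger difference without it was also given in advance. SLC2A2 and SLC7A3 met the rule only through these attachment sites, so the p-values of both genes here are no separate support.

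The other differences on day 24 were smaller or more spread. SLC7A9 was 2.29 higher at attachment sites (adjusted p = 0.692) and SLC7A3 2.94 (adjusted p = 0.426), and the lowest differences were SLC5A1 at −1.42, SLC4A4 at −0.75 and SLC27A1 at −0.69. Without both libraries that stand apart SLC2A2 differed by 2.97 (adjusted p = 0.458), SLC7A9 by 1.60, SLC7A3 by 2.22 and these last 3 by −1.60, −0.79 and −0.51, and no member passed. SLC5A5 was at 0.17, 1.0 and 1.29 at attachment sites and −1.11, −0.59 and −0.60 at inter-sites, which did not overlap, with a difference of 1.59 (adjusted p = 0.161). SLC15A1 at inter-sites of day 24 was at −0.57, 1.43 and −3.51, with replicates 1 and 2 near or above the attachment sites and replicate 3, a library that stands apart, below them.

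On day 18 and day 13 the same comparison called 0 members and 0 of all probes (0%), with 1 and 3 members at an unadjusted p under 0.05, beside 7.48% and 4.81% of the named genes. SLC2A2 and SLC7A3 were above background on no array of these days, so no difference is given for them. On day 18 the largest differences were SLC23A2, a vitamin C transporter above background on 1 array of each group, at 0.76 and SLC22A2, an organic cation transporter, at 0.64, and the lowest SLC5A1 at −1.63, SLC7A9 at −1.18 and SLC15A2, a second peptide transporter, at −1.14. The SLC5A1 arrays did not overlap on that day, at −0.35, −1.95 and −0.58 against 1.53, 0.47 and 0.02. On day 13 they were SLC7A9 at 1.52, SLC30A2 at 1.26 and SLC31A1 at 0.83, and SLC23A2 at −1.10 and SLC11A1 at −0.68. The 3 highest of day 13 rest on inter-site replicate 1: without both libraries that stand apart they were −0.40, −0.25 and −0.03, and the lowest were −0.69 and −0.62.

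Whether the site difference itself changed between days was tested directly, and 0 members passed in each of the 3 contrasts, beside 0.0496%, 0.0496% and 0% of the named genes (24 over 13, 24 over 18 and 18 over 13), and 0.0199%, 0.00997% and 0% of all probes. At an unadjusted p under 0.05 there were 4, 3 and 3 members, beside 6.39%, 4.61% and 7.63% of the named genes. SLC5A5 had the smallest unadjusted p, with a site difference 2.18 larger on day 24 than on day 13 (SE 0.59, 95% confidence interval 0.94 to 3.42, adjusted p = 0.583). SLC2A2 had 3.75 (adjusted p = 0.798) and SLC7A3 3.70 (adjusted p = 0.895), but both were below background on every day 13 array, so their day 13 site difference is not measured. Without inter-site replicate 2 of day 24 both passed, with 5.14 and 5.54 (adjusted p = 0.0136 for each). That array was the high inter-site one for both genes, so larger values without it were given in advance. Without both libraries that stand apart the 3 changes were 2.12, 2.90 and 3.26, and none passed. A call at attachment sites and none at inter-sites is therefore not shown to be a difference between the sites.

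At inter-sites no solute carrier passed the test over any pair of days. From day 13 to day 24 it was 0 members, beside 0.595% of the named genes and 0.246% of all probes, with 14 members at an unadjusted p under 0.05 (15.7% of the named genes) and a median change of 0.37 beside 0.17 over the named genes. The largest differences were SLC15A1 at 2.70 (SE 1.09), SLC9A2, a sodium-proton exchanger, at 1.83 (SE 0.75) and SLC1A1 at 1.73, and the lowest were SLC25A27 at −1.06, SLC30A2 at −0.98 and SLC7A2 at −0.85. Without both libraries that stand apart these were 3.85, 2.08 and 2.17, and −1.01, −1.16 and −0.67. SLC2A2 and SLC7A3 are left out here, since they were above background on no inter-site array of day 13 or 18 and on 1 of day 24. From day 18 to day 24 it was also 0, beside 0.149% of the named genes and 0.143% of all probes, with 15 members at an unadjusted p under 0.05 (19.1% of the named genes). SLC6A8 was nearest, at −1.62, −2.19 and −2.09 and then −0.07, −0.48 and −0.38 without overlap (1.66, SE 0.35, adjusted p = 0.0662), after SLC15A1 at 2.96, and the lowest were SLC7A9 at −1.86, SLC30A2 at −1.53 and SLC9A3R2 at −0.54. Without both libraries SLC6A8 differed by 1.69 and SLC15A1 by 4.28, and the lowest 3 became −1.17, −0.20 and −0.40, so the SLC30A2 value rested on day 24 replicate 3. From day 13 to day 18 it was 0, beside 0.0496% of the named genes and 0.00665% of all probes, with 4 members at an unadjusted p under 0.05 (6.39% of the named genes), and the values ran from SLC23A2 at −1.49, SLC6A8 at −0.83 and SLC25A27 at −0.74 to SLC3A1 at 0.71, SLC1A1 at 0.83 and SLC7A9 at 1.09. Without both libraries they were −1.07, −0.52, −1.32, 0.38, 0.40 and −0.82, so SLC7A9 turned to the other side. At inter-sites no member passed over any pair of days without them.

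The genes called at attachment sites had the same sign at inter-sites, which are other arrays but come from the same sows. All 16 members called from day 13 to day 24 did so, as did 96.3% of the 401 named genes called there, and the members' median size was 1.11 at attachment sites and 0.60 at inter-sites. From day 18 to day 24 it was 9 of 9 members, beside 94.0% of 182 named genes, with medians of 0.99 and 0.80. The share among members is near that of the named genes. Both sets of members include SLC2A2 and SLC7A3, which were above background on 1 inter-site array only, so their sign at inter-sites is poorly measured. The genes were chosen by their call at attachment sites, so a larger median there follows partly from that choice.

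**Figure D4:**
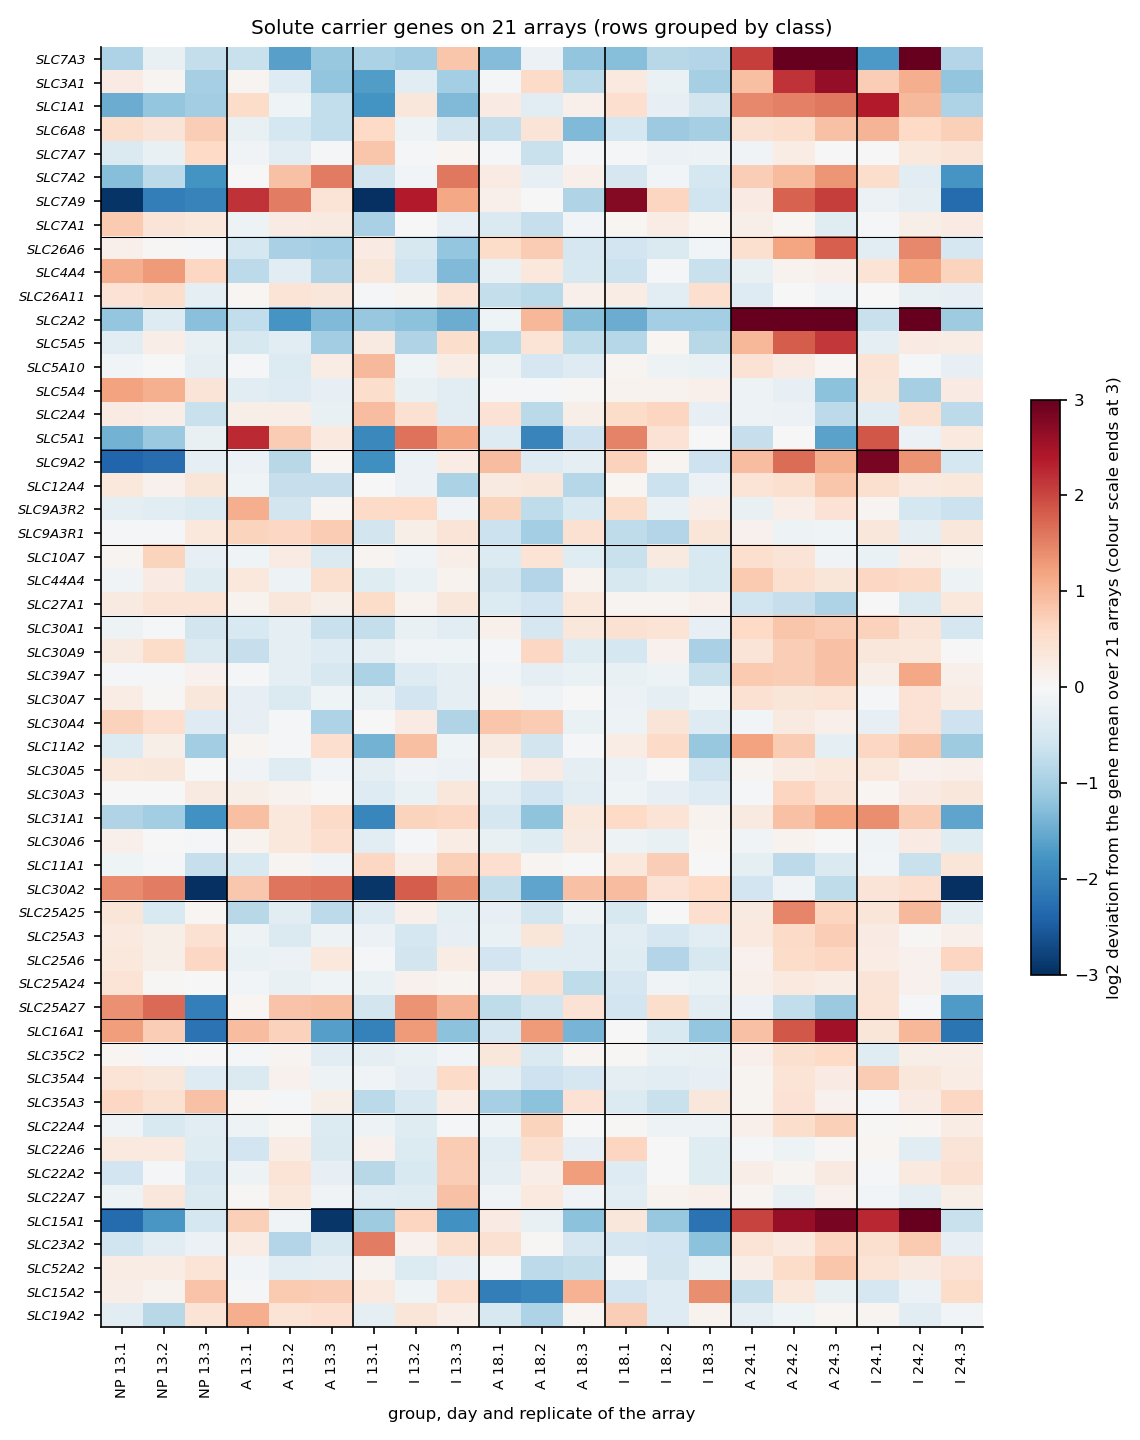
Deviation of 54 of the 55 solute carrier genes from their own means over 21 arrays, in log2 units (red above, blue below, colour ending at 3), with genes in rows grouped by transporter class and arrays in columns by group, day and replicate (NP non-pregnant, A attachment site, I inter-site). The strongest reds of SLC2A2, SLC7A3 and SLC15A1 are in the day 24 columns, and SLC30A2 has 3 dark blue cells in the columns of non-pregnant replicate 3, day 13 inter-site replicate 1 and day 24 inter-site replicate 3.

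Day 13 compares the start of implantation with the non-pregnant uterus, and 1 solute carrier fell and none rose at attachment sites. That is 1.82% of the members lower, beside 1.68% of the named genes lower, and 2.58% of the named genes and 1.79% of all probes in either direction, so the share is near the background. At an unadjusted p under 0.05 there were 14 members, beside 23.8% of the named genes. SLC4A4, a sodium-bicarbonate cotransporter of epithelia, was at −1.75, −1.57 and −2.22 in non-pregnant endometrium and −3.62, −3.16 and −3.74 at attachment sites. The groups did not overlap, and the difference was −1.66 (SE 0.35, adjusted p = 0.0318), with −2.05 and −1.51 within the 2 slides that held both. With the slide as a block it was −1.80 (adjusted p = 0.0592), and leaving out non-pregnant replicate 1 or 2, or any of the 3 attachment arrays, left no member called. Inter-sites had −2.51, −3.45 and −4.18, a difference of −1.53 (adjusted p = 0.0571). Without the libraries that stand apart it was −1.97 (adjusted p = 0.00619). Part of that follows from leaving out replicate 1 for its likeness to a non-pregnant array. On day 24 the inter-sites were at −2.42, −1.66 and −2.17, and the attachment sites at −3.07, −2.73 and −2.69.

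**Figure D5:**
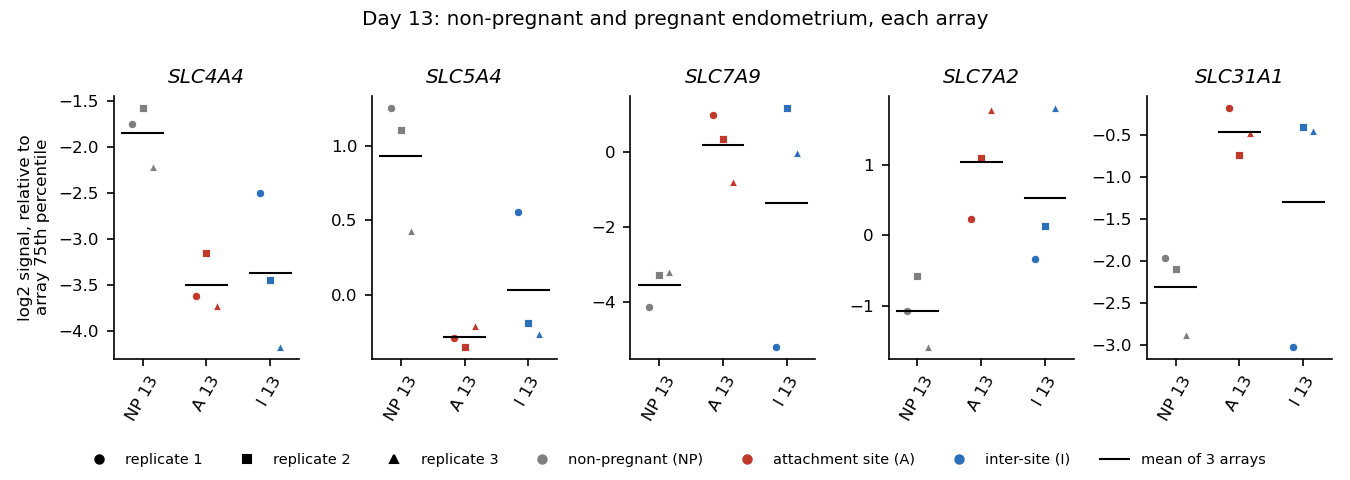
Levels of 5 solute carrier genes on each array of day 13 (vertical axes, log2 signal minus the 75th percentile of its array; NP non-pregnant, A attachment site, I inter-site; lines are means of 3 arrays). SLC4A4 and SLC5A4 are lower and SLC7A9, SLC7A2 and SLC31A1 higher on all attachment-site arrays than on all non-pregnant arrays, while inter-site replicate 1 (blue circle) lies below all non-pregnant arrays for SLC7A9 and SLC31A1.

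The other large day 13 differences did not pass with all 21 arrays. SLC7A9, the light chain that pairs with SLC3A1, was at −4.14, −3.27 and −3.20 in non-pregnant endometrium and 0.97, 0.33 and −0.79 at attachment sites, a difference of 3.70 (SE 1.21, adjusted p = 0.106). Its inter-site arrays were at −5.19, 1.17 and −0.04, the first being the library that stands apart. SLC7A2, the cationic amino acid transporter CAT2, was at −1.07, −0.57 and −1.58 and then 0.23, 1.10 and 1.78, a difference of 2.11 (SE 0.56, adjusted p = 0.0595). SLC31A1, the copper importer, was at −1.96, −2.10 and −2.88 and then −0.17, −0.74 and −0.48, a difference of 1.85 (SE 0.70, adjusted p = 0.153). SLC5A1 differed by 2.02 (adjusted p = 0.181). On the lower side SLC5A4 was at 1.26, 1.10 and 0.43 and then −0.29, −0.35 and −0.21 (−1.21, adjusted p = 0.0728), and SLC6A8 differed by −1.05 (adjusted p = 0.117).

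Without both libraries that stand apart, 6 members passed over non-pregnant endometrium at attachment sites and 4 at inter-sites. These are 10.9% and 7.27% of the members, beside 9.61% and 5.6% of the named genes and 6.53% and 3.85% of all probes without those libraries, so both shares are near the background. SLC7A9 was then higher by 3.70 (adjusted p = 0.00818) and 4.10 (adjusted p = 0.0132), SLC31A1 by 1.85 (adjusted p = 0.00849) and 1.88 (adjusted p = 0.0211), and SLC7A2 by 2.11 (adjusted p = 0.0114) and 2.04 (adjusted p = 0.0333). SLC4A4 passed at both sites, and SLC5A4 (adjusted p = 0.0412) at attachment sites. The attachment-site differences are the same with and without these libraries, which are inter-sites, and what changed was the estimate of the spread. The day 13 library was set aside for its likeness to a non-pregnant array. A larger inter-site difference without it, and a smaller spread for both sites, thus follow partly from that choice. These calls are no separate support. The smooth muscle markers stood at 3.12, 2.99 and −2.04 on the non-pregnant arrays and −1.94, 2.23 and −1.48 at attachment sites, and the 6 epithelial markers were higher at attachment sites by a median of 0.63, with none past the test; their part in these differences was not tested. At inter-sites with all arrays the count was 0, beside 0.743% of the named genes and 0.449% of all probes, with 13 members at an unadjusted p under 0.05 (20.5% of the named genes). The largest values there were SLC7A9 at 2.18, SLC7A2 at 1.61 and SLC5A1 at 1.20, and the lowest SLC4A4 at −1.53, SLC35A3, a nucleotide sugar carrier of the Golgi, at −1.0 and SLC7A1 at −0.91.

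From day 13 to day 18 at attachment sites no solute carrier passed, beside 2.97% of the named genes and 1.79% of all probes, and 10 had an unadjusted p under 0.05 (22.7% of the named genes). SLC5A1 had the lowest difference, −2.10 (SE 0.82, adjusted p = 0.158), followed by SLC30A2 at −1.82 and SLC7A9 at −1.61, and SLC26A6 at 1.11 and SLC30A4, a zinc transporter of vesicles, at 0.88 were the highest among genes measured on both days. SLC19A2, a thiamine transporter, did not overlap between the days, at 2.59, 1.91 and 1.99 and then 1.01, 0.57 and 1.54 (−1.12, SE 0.34, adjusted p = 0.0849). The day 18 arrays were split: SLC15A2 was at −3.74, −3.63 and −0.63, and SLC9A3R1, a scaffold that anchors SLC9A3 at the epithelial membrane and is no carrier itself, at 2.78, 2.41 and 3.90. Without attachment replicate 3 of day 18, 7 members fell, among them SLC15A2 by 2.49 (adjusted p = 0.00941), SLC9A3R1 by 1.52 (adjusted p = 0.0142) and SLC19A2 by 1.37 (adjusted p = 0.0251). That is 12.7% of the members, beside 6.19% of the named genes that fell without that array and 12.6% that passed in either direction (12.4% of all probes). For each of these 7 members the array left out was the highest attachment site of day 18. Larger falls without it were thus given in advance, and these calls are no separate support. From day 13 to day 18 all 6 epithelial markers had negative differences, with a median of −1.10 and 5 at an unadjusted p under 0.05, though none passed. Of the 6 T and NK cell markers 2 rose, CD2 by 2.79 and CD3D by 2.05, with a median of 1.91 over the 6. The 4 smooth muscle markers had a median of 1.71, and none passed. The part of these cell types in the solute carrier values was not tested.

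The genes with patterns most like SLC2A2 and SLC5A5 were found by Pearson's r over the 21 arrays, which share the groups described above. SLC2A2 was most like SLC7A3 (0.927), SLC26A6 (0.866) and SLC3A1 (0.851). SLC5A5 was most like SLC7A3 (0.813), SLC2A2 (0.811) and SLC30A9 (0.751). SLC2A2 and SLC7A3 were above background on the same 4 arrays and met the rule through the same group. A high r between them was thus given in advance, and values of r with either gene rest largely on those arrays.

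Transport genes outside the SLC symbols were counted from a list of 70, of which 31 were measured. From day 13 to day 24 at attachment sites 5 of the 31 rose, where 14.6% of all named genes did. They were AQP8, a water channel, by 7.24 (SE 0.84, adjusted p = 0.000156), CFTR, a chloride and bicarbonate channel, by 2.22, the fatty acid binding proteins FABP3 and FABP5 by 2.71 and 1.5, and ATP6V1A, a subunit of the vacuolar proton pump, by 1.35. AQP11, another water channel, fell by 2.16. AQP8 was the 1 list member that passed between sites of day 24, by 4.36 (adjusted p = 0.0372), and with ATP6V1A and FABP3 it also rose from day 18. On day 13, SCNN1A, part of the sodium channel of epithelia, was the 1 that passed, higher at attachment sites than in non-pregnant endometrium by 3.28 (adjusted p = 0.0175). It was well above background on only 11 of the 21 arrays, so the size of this difference is uncertain.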

How the data were processed

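Per the file headers, the authors scanned 21 one-colour Agilent arrays with Feature Extraction 10.7.3.1 (10.7 per the submitters' processing notes), and the deposited values are spot intensity, background-subtracted and detrended within each array, with flags for outlier spots, saturated spots and spots well above background. The authors' deposited table holds log2 values with the same quantiles in every column (largest difference 0.00134); the sources used here do not say how it was made. Control spots and outlier flags were left out, spots of a probe were averaged, and log2 processed signal minus the 75th percentile of the array was used. A probe was tested where, in 1 or more groups, each of the 3 arrays had it well above background. Of 5779 probes with a RefSeq accession 5461 matched a gene and 318 did not.

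Group means of all 7 groups were fitted with limma 3.58.1 in R 4.3.3 (14 residual degrees of freedom), with Benjamini-Hochberg adjustment over 30091 probes and a threshold of 0.05, for 11 comparisons and 3 changes of the site difference. The fit was tested on simulated data. The number of arrays limits the precision. The arrays lay on 6 slides. Alternatives were normexp (offset 50, on the median signal in place of the mean signal named in the plan), quantile and median scaling, other filters, the slide as a fixed or random block, the replicate number as a block, the authors' table, a second probe, and leaving out arrays. The members and gene lists were chosen with earlier results of these data known. Genes named are all called members, the 3 highest and 3 lowest of each comparison, and a list of transporters known in pig endometrium or placenta, and others named beside them were chosen after their values were seen. Sequences and positions were not used here. Values of 1 called member, which all counts include, are not reported here.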

Additional observations from a re-analysis of the deposited data

How the results depend on the processing

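None of the solute carriers called in a comparison turned its direction in that comparison under any alternative run, while some uncalled differences did, such as SLC7A9, SLC30A2 and SLC31A1 between sites of day 13 without both libraries that stand apart. Against 1 solute carrier called at attachment sites over non-pregnant endometrium on day 13, the count was 0 with normexp, with no filter, with the slide as a fixed block and with the second probe, 2 with only probes above background on all arrays, and 6 without both libraries that stand apart. At inter-sites over non-pregnant endometrium it was 0, and became 1 with median scaling, 1 with only probes above background on all arrays and 4 without both libraries. For attachment sites, the 16 calls between day 13 and day 24 became 4 with normexp and 9 with the second probe, which only 34 members have. From day 18 to day 24 the 9 calls became 1 with normexp, 4 with no filter, 2 with the slide block and 4 with the second probe. Apart from the smaller number of genes for the second probe, the cause was not tested. Normexp moved the median of all probes from 0.02 to 0.28 from day 13 to day 24 and from −0.06 to −0.26 on day 13 over non-pregnant endometrium. Leaving out 1 array at a time gave 8 to 18 calls from day 13 to day 24 at attachment sites, 0 to 10 from day 18 to day 24, 0 to 7 from day 13 to day 18, 0 to 4 at attachment sites and 0 to 2 at inter-sites over non-pregnant endometrium, 0 to 2 between sites of day 24 and in the change of the site difference from day 13 to day 24, and 0 to 1 at inter-sites from day 13 or day 18 to day 24. Whether the replicate numbers pair the samples was not settled, since deviations from means of 3 arrays cannot exclude it. In no comparison did all 3 same-numbered pairs correlate above 0.1. Between sites they correlated at −0.11, −0.01 and 0.23 on day 13, 0.23, 0.099 and 0.49 on day 18, and 0.19, 0.08 and 0.08 on day 24. With the replicate number as a block 17 members were called from day 13 to day 24, 9 from day 18 to day 24, 1 between sites of day 24 and 1 at inter-sites over non-pregnant endometrium. Signal over background limits SLC2A2 and SLC7A3, which were above background on 4 arrays each, so only bounds on their fold changes can be given.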

Other observations

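Several solute carriers varied more within groups than between them. SLC30A2, a zinc exporter, was between −4.77 and −3.91 on 3 arrays, non-pregnant replicate 3 and the inter-site libraries that stand apart (day 13 replicate 1 and day 24 replicate 3), and between −2.58 and 0.81 on the other 18. SLC16A1, the lactate transporter, ran from −4.34 to 0.38 over the 21 arrays, and its other probes followed it (Pearson r = 0.974 and 0.934). The widest range within a group of 3 was 6.36 for SLC7A9 at the inter-sites of day 13, then 5.96 for SLC7A3 and 4.94 for SLC15A1 at those of day 24 and 5.32 for SLC30A2 in non-pregnant endometrium. The median over the 55 members of each gene's widest range was 1.24.

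Of the 34 members with several tested probes, the lowest correlation with the main probe was at least 0.9 in 16 and under 0.5 in 6 (SLC10A7, SLC11A1, SLC22A4, SLC2A4, SLC5A10 and SLC27A1).

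In the authors' deposited table, the columns of inter-site replicates 2 and 3 of day 24 followed each other's scanner values (r = 0.9999) rather than their own (r = 0.9602). Both belong to the same group, so group means are unaffected, but the replicate numbers of these arrays differ between the deposited sources.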
